A study of Mus musculus with 6 samples.

Results

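Transcript levels of genes for glucose uptake, glycolysis, pyruvate handling and the hypoxia response were followed across 3 RNA sequencing libraries of mouse C2C12 myoblasts. The members were the rows of the expression tables whose symbol stood in a list of 43 symbols, and 42 of them were found, out of 22988 usable rows. The symbol Pkm2 had no row, and the row Pkm, which RefSeq gives as the same gene, is described beside the members without being counted among them. C2C12 is an established myoblast line, given in the labels with the strain C3H. The 3 groups, with 1 library each, were siNS myoblasts starved for 4 h (the starved library), siFoxk1 myoblasts that were not starved (the knockdown library) and siNS myoblasts that were not starved (the control library). siNS is the siRNA that the controls carried, and siFoxk1 is the siRNA against the forkhead transcription factor gene Foxk1. Growth medium was DMEM with 10% fetal bovine serum and added glutamine, and starvation replaced it with Hank's balanced salt solution buffered with 10 mM HEPES, which removed serum and amino acids. Hank's solution normally contains glucose, and the labels give the glucose content of neither medium. The design text names starvation and Foxk1 depletion, each relative to the non-starved control, as the comparisons.

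Glycolysis splits glucose into pyruvate in the cytosol. Hexokinase and phosphofructokinase spend ATP in its first part, and phosphoglycerate kinase and pyruvate kinase recover it in the second. Pyruvate is then either reduced to lactate by lactate dehydrogenase and exported, or oxidised in mitochondria by the pyruvate dehydrogenase complex, which the pyruvate dehydrogenase kinases switch off. Under low oxygen the HIF transcription factors raise many of these genes, and the prolyl hydroxylases encoded by the Egln genes mark the HIF alpha subunits for degradation. Skeletal muscle relies on glycolysis during short effort and has its own isoforms of several enzymes. FOXK1 and FOXK2 are known from other work in mouse cells and tissues as factors that promote aerobic glycolysis and raise genes of its enzymes.

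Levels are FPKM, fragment counts scaled by the authors for transcript length and library depth, with the lower and upper limits of their 95% interval. With 1 library per group there was no spread between replicates and no test, and no difference has a replicate check. A member is called higher or lower where the deposited intervals of a pair of libraries lie apart, a statement on the libraries rather than on the conditions. For the 40 members at 1 FPKM or more, the distance from the middle of the interval to either limit was compared with the level. Its median was 19.4% of the level in each treated library and 17.6% in the control library. The intervals are not always centred on the level, as for Gapdh at 992 FPKM (764 to 1100.0) in the control library. A level can even lie outside its interval, as for the hypoxia gene Fam162a, not a member, at 95.7 FPKM (61.0 to 92.1) in the starved library. Log2 fold changes are log2((FPKM + 1)/(FPKM of the control library + 1)), and ratios are of plain FPKM. The siRNA target Foxk1 was at 16.1 FPKM (interval 13.3 to 18.9) in the starved, 5.15 FPKM (4.29 to 6.02) in the knockdown and 9.09 FPKM (7.76 to 10.4) in the control library, with all 3 intervals apart. All 6 listed myoblast markers were above 1 FPKM in every library, with Des reaching 520.0 FPKM, and all 4 endothelial markers were below 1 FPKM. Of the myoblast markers, Myod1 was lower and apart from the control in the starved library, at 10.7 FPKM against 70.1 FPKM in the control library, and Myf5 was higher and apart there, at 29.6 FPKM against 16.8 FPKM. In bulk RNA, fewer cells of a type and less RNA per cell cannot be told apart.

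Of the 42 members, 40 reached 1 FPKM in at least 1 library of each comparison. The other members, the glucose transporter genes Slc2a3 and Slc2a4, stayed between 0.166 and 0.390 FPKM in all 3 libraries. In the knockdown library 9 of the 17 enzyme members from hexokinase to lactate dehydrogenase were lower than in the control library with intervals apart. None was higher, and of all expressed rows 7.13% were lower and 8.89% higher. From aldolase to lactate dehydrogenase, a range that was not a planned step, 8 of the 11 members were lower and apart. The others, Aldoc, Eno2 and Ldhb, overlapped the control library. Pkm, not counted as a member, overlapped it as well, with a log2 fold change of -0.49. Over the whole list 12 of 40 members were lower in the knockdown library with intervals apart, where 7.13% of all 11357 expressed rows were, and 4 were higher, where 8.89% of all rows were. The median log2 fold change of the 40 members was -0.34, and that of all rows 0.02. With a pseudocount of 5 the members' median was -0.18. The starved library showed no such shift, since 6 of 40 members were lower (10.9% of 11396 rows) and 4 were higher (12.2% of rows), shares near those of all rows, with a median of -0.01 for the members and -0.01 for all rows. With a fold of 1.5 or more on the log2 scale as the call instead, 12 members were lower and 3 higher in the knockdown library (6.22% and 7.74% of rows), and 3 were lower and 4 higher in the starved library (9.52% and 10.3% of rows).

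**Figure D1:**
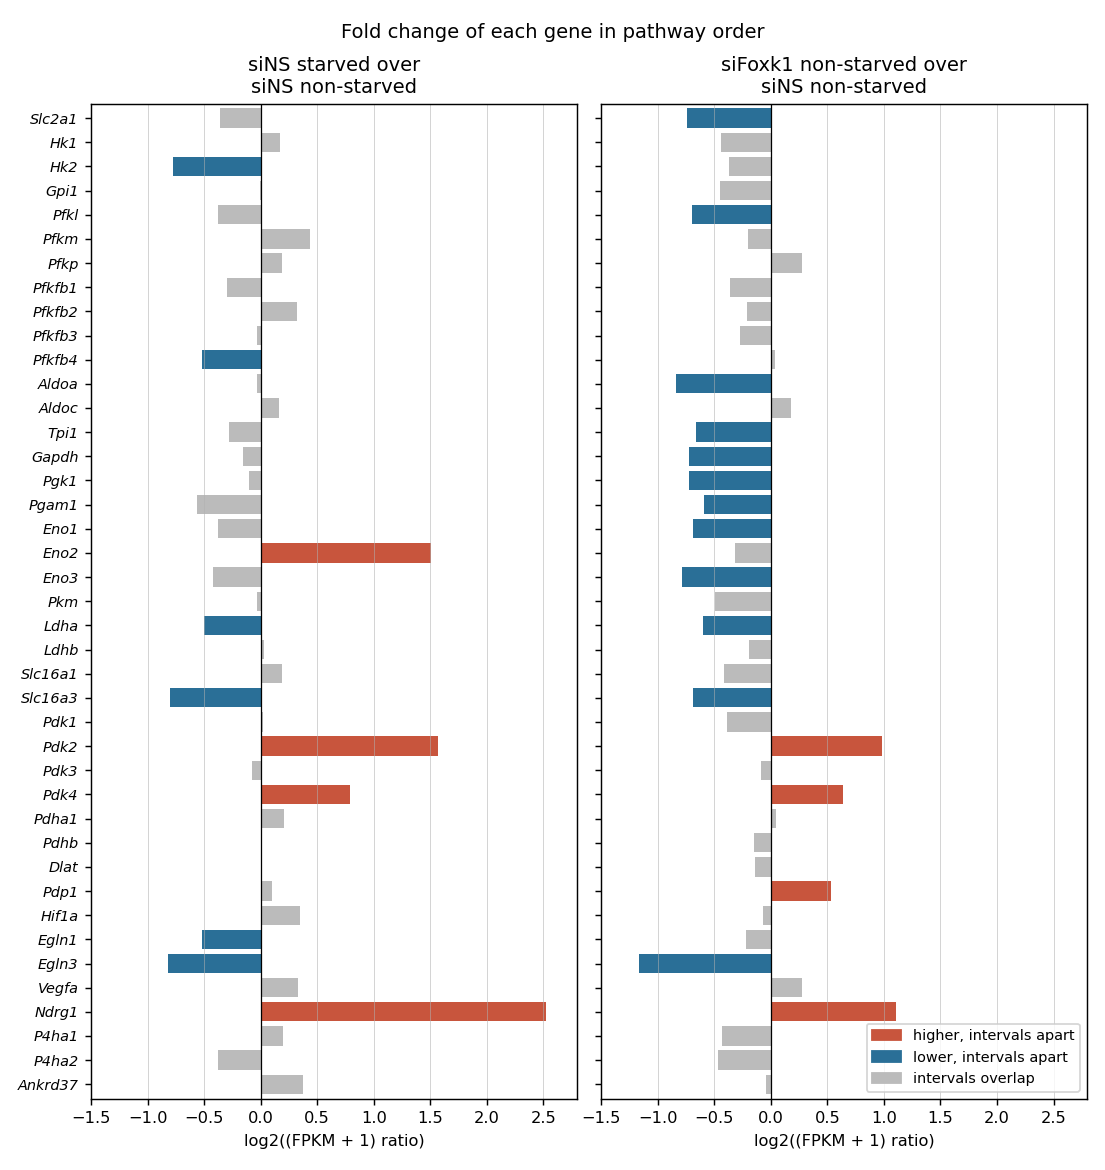
Log2 fold change of (FPKM + 1) of the 40 expressed members and Pkm, in pathway order from top to bottom, in the starved library (left) and the knockdown library (right), each over the same control library. Bars are coloured where the authors' intervals lie apart: from Aldoa to Ldha most bars of the knockdown panel are lower and apart, between -0.59 and -0.84 for the coloured ones, while in the starved panel the longest bars are Ndrg1, Pdk2 and Eno2, all higher.

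Slc2a1, which encodes the main basal glucose transporter GLUT1, was at 50.2 FPKM (41.4 to 59.1) in the starved, 38.2 FPKM (32.2 to 44.2) in the knockdown and 64.6 FPKM (55.7 to 73.5) in the control library. The knockdown library was thus lowest and apart from the control at 0.591 times its level, whereas the starved library, at 0.777 times, overlapped it. The insulin-responsive transporter gene Slc2a4 was among the members under 1 FPKM, so GLUT1 was the only one of the 3 listed glucose transporters with a level above that limit.

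Hexokinase traps glucose in the cell as glucose phosphate. Hk1, the constitutive isoform, was at 73.7 FPKM (59.6 to 88.7) in the starved, 48.1 FPKM (40.1 to 56.0) in the knockdown and 65.4 FPKM (55.6 to 75.3) in the control library. Its intervals overlapped the control's in either comparison, while the knockdown library lay below the starved one with intervals apart. Hk2, the inducible isoform of muscle and growing cells, was at 7.96 FPKM (6.69 to 9.23) in the starved, 10.9 FPKM (9.16 to 12.6) in the knockdown and 14.4 FPKM (12.3 to 16.4) in the control library. The starved library was apart from the control at 0.554 times its level, and the knockdown library overlapped it at 0.758 times. Hk2 made up 9.75% of the summed hexokinase FPKM in the starved library, against 18.5% in the knockdown and 18% in the control library. Gpi1, the glucose phosphate isomerase, was at 161 FPKM (135 to 187) in the starved, 119 FPKM (99.2 to 139) in the knockdown and 163 FPKM (138 to 189) in the control library, with overlapping intervals. For Hk1, Hk2 and Gpi1 the knockdown library was below the control and overlapped it only at the edge of the intervals.

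Phosphofructokinase commits the sugar to glycolysis, and it has liver, muscle and platelet isoforms. Pfkl, the liver type, was at 42.0 FPKM (35.4 to 48.6) in the starved, 33.6 FPKM (28.3 to 38.9) in the knockdown and 55.1 FPKM (47.4 to 62.8) in the control library. It was lower and apart from the control in the knockdown library at 0.609 times, and the starved library overlapped the control. Pfkm, the muscle type, was at 29.4, 18.6 and 21.4 FPKM and Pfkp, the platelet type, at 33.6, 35.8 and 29.4 FPKM in the starved, knockdown and control libraries, all with overlapping intervals. Pfkl held 40% of the summed phosphofructokinase FPKM in the starved, 38.2% in the knockdown and 52.1% in the control library. The summed level of the 3 isoforms was 105 FPKM in the starved, 88.0 FPKM in the knockdown and 106 FPKM in the control library.

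The Pfkfb genes encode the enzymes that make and break down a sugar bisphosphate that activates phosphofructokinase. They were low, between 1.11 and 7.00 FPKM. Pfkfb4 was at 2.98 FPKM (2.41 to 3.54) in the starved, 4.86 FPKM (4.00 to 5.73) in the knockdown and 4.71 FPKM (3.94 to 5.48) in the control library. The starved library was lower than the control with intervals apart, and the knockdown library was close to the control and above the starved library with intervals apart. For Pfkfb1, Pfkfb2 and Pfkfb3 the intervals overlapped the control's in either comparison, with log2 fold changes between -0.36 and 0.32.

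Aldolase and triose phosphate isomerase yield the triose phosphates. Aldoa, the muscle and general isoform, was at 634 FPKM (517 to 751) in the starved, 361 FPKM (289 to 435) in the knockdown and 649.8 FPKM (532 to 773) in the control library. The knockdown library lay below both others with intervals apart, at 0.556 times the control (log2 fold change -0.84), the lowest fold change of any glycolytic enzyme member, and the starved library overlapped the control. Aldoc, the brain isoform, was at 1.52, 1.54 and 1.25 FPKM in the starved, knockdown and control libraries and gave at most 0.425% of the aldolase sum. Tpi1 was at 321 FPKM (253 to 377) in the starved, 246 FPKM (192 to 301) in the knockdown and 390.3 FPKM (314 to 471) in the control library, and the knockdown library was apart from the control.

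In the lower part of glycolysis, from Gapdh to Eno3, 5 of 6 members were lower and apart in the knockdown library (7.13% of all rows), and none of the 5 was apart in the starved library (10.9% of all rows lower). Gapdh, which oxidises glyceraldehyde phosphate and is often used as a reference gene, was at 0.607 times the control in the knockdown and 0.895 times in the starved library. Pgk1, which makes the first ATP of the pathway's second part, was at 593 FPKM (444 to 668) in the starved, 385 FPKM (291 to 436) in the knockdown and 635 FPKM (487 to 701) in the control library. For Pgk1 the knockdown library lay below both others with intervals apart. Pgam1, phosphoglycerate mutase, was at 289 FPKM (230.4 to 345) in the starved, 284 FPKM (224 to 336) in the knockdown and 426 FPKM (344 to 495) in the control library. Both treated libraries were thus at nearly the same level below the control, and the starved one overlapped the control only at the edge of the intervals.

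Enolase makes phosphoenolpyruvate, and its neuronal isoform Eno2 differed in direction from Eno1 and Eno3 in the starved library. Eno1, the general isoform, was at 412 FPKM (337 to 486) in the starved, 332 FPKM (267 to 398) in the knockdown and 536 FPKM (441 to 632) in the control library. Eno3, the muscle isoform, was at 212 FPKM (167 to 255) in the starved, 164 FPKM (129 to 201) in the knockdown and 285 FPKM (228 to 343) in the control library. Both were lower and apart in the knockdown library, at 0.619 and 0.576 times the control, and both overlapped the control in the starved library. Eno2, the neuronal isoform and a known HIF target, was at 8.77 FPKM (7.27 to 10.3) in the starved, 1.76 FPKM (1.33 to 2.18) in the knockdown and 2.43 FPKM (1.92 to 2.94) in the control library. The starved library stood above both others with intervals apart, at 3.60 times the control, and the knockdown library overlapped the control. Eno2 made up 1.39% of the enolase sum in the starved library, against 0.353% in the knockdown and 0.296% in the control library. Gm5506, a near copy of Eno1, was at 142, 114 and 179 FPKM in the starved, knockdown and control libraries, so the split of reads between it and Eno1 is uncertain. Gapdh, Pgk1, Pgam1, Aldoa, Tpi1 and Ldha also have pseudogene copies in the mouse genome, and how reads shared with them were counted is not given in the sources used here. Pkm, pyruvate kinase, was at 1242 FPKM (972 to 1485) in the starved, 899 FPKM (707 to 1100.4) in the knockdown and 1265 FPKM (1018 to 1527) in the control library, with overlapping intervals, and the row does not separate its splice forms.

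**Figure D2:**
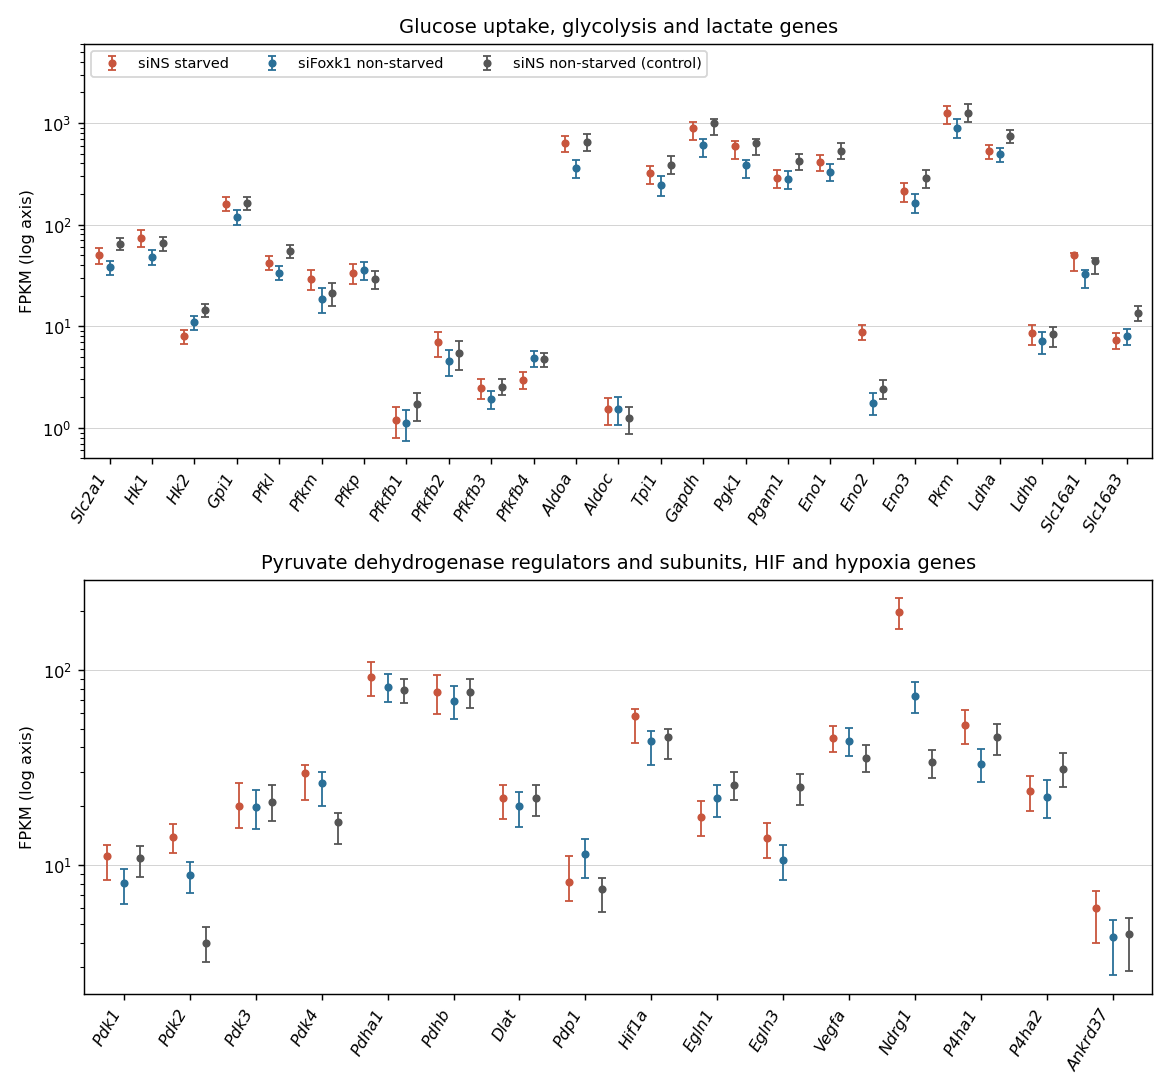
FPKM on a log axis with the authors' 95% interval (bars) of the 40 expressed members and Pkm in the starved, knockdown and control libraries. From Aldoa to Ldha, leaving out Aldoc and Eno2, the levels are 164 FPKM or more in every library and the knockdown point is the lowest of the 3, as for Aldoa at 361 FPKM in the knockdown against 649.8 FPKM in the control library.

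Lactate dehydrogenase and the monocarboxylate transporters handle the end product. Ldha, the muscle type subunit, was at 527 FPKM (445 to 608) in the starved, 492 FPKM (410.1 to 573) in the knockdown and 748 FPKM (637 to 858) in the control library. Both treated libraries lay below the control with intervals apart and overlapped each other. Ldhb, the heart type subunit, was at 8.53, 7.16 and 8.32 FPKM in the starved, knockdown and control libraries, with overlapping intervals, and gave at most 1.59% of the summed lactate dehydrogenase FPKM. Slc16a3, which encodes the lactate exporter MCT4 of glycolytic cells, was at 7.29 FPKM (5.99 to 8.59) in the starved, 7.97 FPKM (6.55 to 9.40) in the knockdown and 13.5 FPKM (11.3 to 15.7) in the control library. Again both treated libraries were below the control and apart from it, at 0.542 and 0.593 times. Slc16a1, which encodes the general transporter MCT1, was at 50.2, 32.8 and 43.8 FPKM in the starved, knockdown and control libraries, with intervals overlapping the control's.

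Summed over the 18 genes of the enzymes from hexokinase to lactate dehydrogenase, Pkm included, FPKM came to 5484 in the starved, 4042 in the knockdown and 6288 in the control library. The starved library thus had 1.04% of all its FPKM in these genes, the knockdown library 0.719% and the control library 1.11%. By step, the knockdown library was at 0.558 times the control for aldolase and between 0.605 and 0.739 times for every other step but phosphofructokinase, at 0.831 times. The starved library was between 0.895 and 1.02 times the control at 7 of the 11 steps and lower at triose phosphate isomerase (0.823), enolase (0.768), lactate dehydrogenase (0.708) and phosphoglycerate mutase (0.677).

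**Figure D3:**
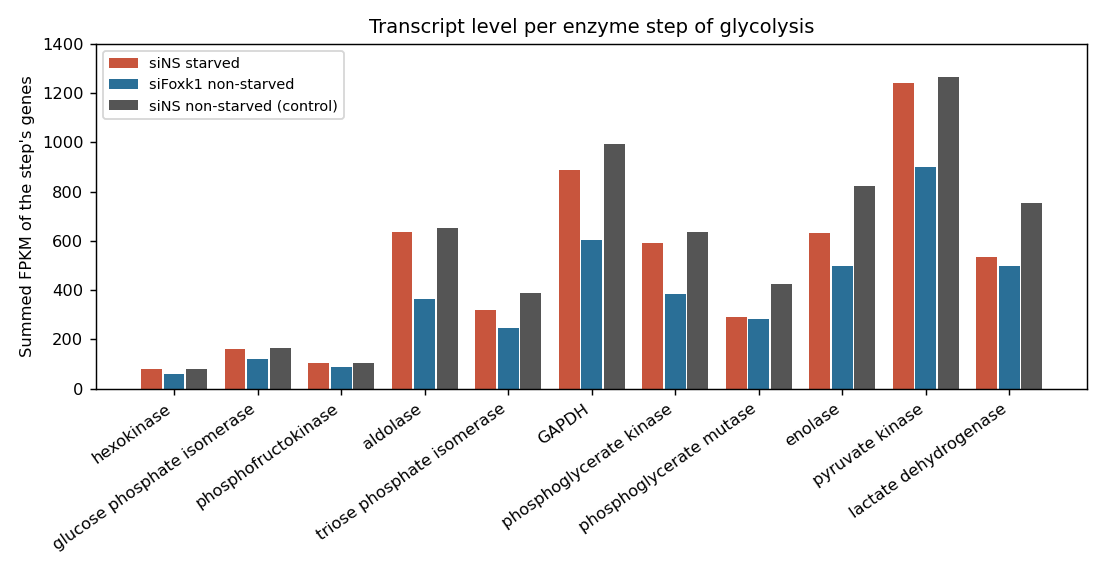
Summed FPKM of the genes of each glycolytic enzyme step in the starved, knockdown and control libraries, from hexokinase on the left to lactate dehydrogenase on the right, without error bars because a sum has no deposited interval. The knockdown bar is the lowest at every step, with 363 FPKM for aldolase against 651 FPKM in the control library, while the starved bar is close to the control at most early steps.

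Most of these enzyme genes are among the most abundant transcripts, so they were also read against rows of like level. Of 835 rows that averaged 100 FPKM or more, 7.54% were lower and apart in the knockdown library and 6.95% higher, with a median log2 fold change of -0.08. Of the 9 glycolytic enzyme members at that level, 8 were lower and apart, all but Gpi1, and the median of the 9 was -0.69. Pkm, also at that level but not counted as a member, overlapped the control in the knockdown library (-0.49). In the starved library 16.0% of 836 such rows were lower and apart, 4.07% were higher, and 1 of the 9 enzymes was lower and apart, Ldha. There the median was -0.20 for the rows and -0.28 for the 9 enzymes.

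The pyruvate dehydrogenase kinases phosphorylate and switch off the pyruvate dehydrogenase complex, and Pdk2 and Pdk4 were higher than the control in both treated libraries. Pdk2, the widely expressed kinase, was at 13.9 FPKM (11.5 to 16.2) in the starved, 8.83 FPKM (7.22 to 10.4) in the knockdown and 4.00 FPKM (3.20 to 4.78) in the control library. All 3 intervals lay apart, with the starved library at 3.47 times and the knockdown library at 2.21 times the control. Pdk4, the kinase known for its induction by fasting and FoxO factors in muscle, was at 29.5 FPKM (21.6 to 32.4) in the starved, 26.4 FPKM (20.0 to 29.9) in the knockdown and 16.6 FPKM (12.8 to 18.5) in the control library. Both treated libraries lay above the control with intervals apart and overlapped each other. Pdk1, known as a HIF target, was at 11.1, 8.09 and 10.9 FPKM and Pdk3 at 20.0, 19.8 and 21.1 FPKM in the starved, knockdown and control libraries, with overlapping intervals. Pdk2 and Pdk4 stood at 18.6% and 39.6% of the summed FPKM of the kinase family in the starved, 14% and 41.9% in the knockdown, and 7.58% and 31.5% in the control library. The family sum was 74.4 FPKM in the starved, 63.1 FPKM in the knockdown and 52.7 FPKM in the control library.

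A phosphatase opposes these kinases. Pdp1, a catalytic subunit of the pyruvate dehydrogenase phosphatase, was at 8.20 FPKM (6.54 to 11.1) in the starved, 11.4 FPKM (8.61 to 13.6) in the knockdown and 7.56 FPKM (5.72 to 8.56) in the control library. Only the knockdown library was apart from the control, by the narrow gap between 8.61 and 8.56 FPKM, at 1.51 times. Pdha1, Pdhb and Dlat, which encode subunits of the complex itself, had log2 fold changes between -0.15 and 0.21 over the 2 comparisons, and none was apart.

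The hypoxia genes did not share one direction. Hif1a, the HIF alpha subunit gene, was at 58.1, 43.0 and 45.3 FPKM in the starved, knockdown and control libraries, with overlapping intervals. Egln3, an oxygen-sensing prolyl hydroxylase that is itself a HIF target, was at 13.8 FPKM (10.8 to 16.4) in the starved, 10.6 FPKM (8.33 to 12.7) in the knockdown and 25.1 FPKM (20.2 to 29.2) in the control library. Both treated libraries lay below the control with intervals apart, and the knockdown log2 fold change of -1.17 was the lowest of all members. Egln1, the main HIF prolyl hydroxylase, was at 17.7 FPKM (14.1 to 21.2) in the starved, 22.0 FPKM (17.7 to 25.8) in the knockdown and 25.8 FPKM (21.4 to 30.1) in the control library. The starved library was apart from the control by a gap of 21.2 to 21.4 FPKM that closed when the tables were rescaled to a median ratio of 1.

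Ndrg1, a stress-responsive gene induced by hypoxia and by differentiation, was at 197 FPKM (162 to 232) in the starved, 73.4 FPKM (60.2 to 86.4) in the knockdown and 33.6 FPKM (27.8 to 39.0) in the control library. All 3 intervals lay apart, and the starved log2 fold change of 2.52 was the largest of the members, beside 1.11 in the knockdown library. Vegfa, the angiogenic growth factor gene, was at 44.7, 43.2 and 35.4 FPKM and Ankrd37, a HIF target of uncertain function, at 5.99, 4.28 and 4.42 FPKM in the starved, knockdown and control libraries. The collagen prolyl hydroxylase gene P4ha1 was at 51.9 FPKM (41.7 to 62.0) in the starved, 33.0 FPKM (26.6 to 39.3) in the knockdown and 45.0 FPKM (36.7 to 52.6) in the control library, and P4ha2 at 23.8, 22.2 and 31.2 FPKM. None of these 4 genes was apart from the control, and for P4ha1 the knockdown library lay below the starved one with intervals apart.

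**Figure D4:**
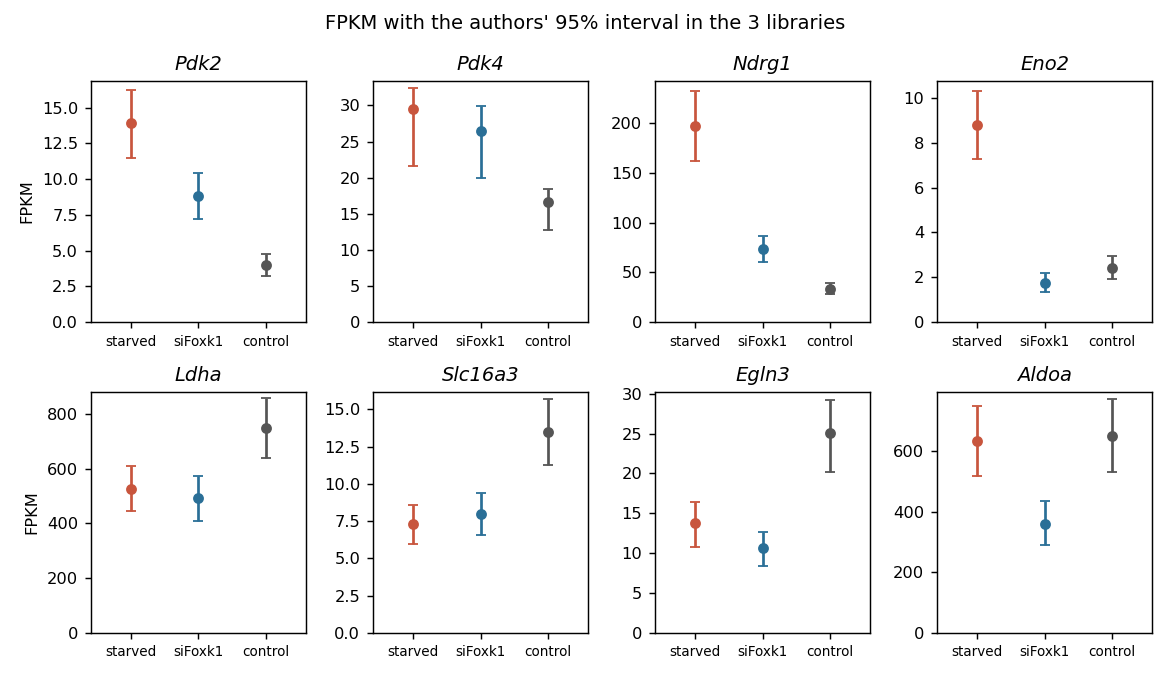
FPKM with the authors' 95% interval (bars) of 8 members in the starved, knockdown and control libraries, with each axis starting at 0. Pdk2, Pdk4 and Ndrg1 are higher and Ldha, Slc16a3 and Egln3 lower than the control in each treated library, Eno2 is high in the starved library at 8.77 FPKM, and Aldoa is low in the knockdown library at 361 FPKM.

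Because the comparisons share 1 control library, a low or high control value moves both of them. The starved and knockdown libraries were therefore also set against each other, where siRNA and starvation differ together. In the knockdown library 7 of 40 members were lower than in the starved library with intervals apart, where 13.3% of 11478 rows were, namely Hk1, Aldoa, Pgk1, Eno2, Pdk2, Ndrg1 and P4ha1. The single member higher was Pfkfb4, where 13.7% of rows were higher. The median log2 fold change was -0.31 for the members and 0.02 for all rows. For Slc2a1, Pfkl, Tpi1, Gapdh, Pgam1, Eno1 and Eno3, called lower in the knockdown library against the control, the knockdown and starved intervals overlapped. They are therefore not called between those libraries, which does not make their levels equal. Pgam1 was at 284 FPKM in the knockdown and 289 FPKM in the starved library. Gapdh, at 602 FPKM (459.8 to 689.8) in the knockdown and 887 FPKM (687 to 1035) in the starved library, overlapped only at the edge of the intervals.

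Promoter sequences are shown for the members called in the same direction in each treated library against the shared control, so that their upstream letters can be compared. They are the 250 bases before the first start that the RefSeq table lists (build GRCm38.p6), read 5′ to 3′ on the gene's strand. Letters are in lower case, with each ACGTG in capitals on whichever strand it reads. ACGTG is 1 form of the core that HIF binds, and other forms were neither marked nor counted. Ndrg1 is not shown. Ldha lies at chr7:46845554-46845803 (plus strand), Slc16a3 at chr11:120948817-120949066 (plus), Egln3 at chr12:54203875-54204124 (minus), Pdk2 at chr11:95041372-95041621 (minus) and Pdk4 at chr6:5496279-5496528 (minus).
Ldha: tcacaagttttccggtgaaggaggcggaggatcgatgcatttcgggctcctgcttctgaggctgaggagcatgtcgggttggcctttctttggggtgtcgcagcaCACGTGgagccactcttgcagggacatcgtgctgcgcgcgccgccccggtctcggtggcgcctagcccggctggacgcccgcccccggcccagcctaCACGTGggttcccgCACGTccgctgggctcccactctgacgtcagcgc
Slc16a3: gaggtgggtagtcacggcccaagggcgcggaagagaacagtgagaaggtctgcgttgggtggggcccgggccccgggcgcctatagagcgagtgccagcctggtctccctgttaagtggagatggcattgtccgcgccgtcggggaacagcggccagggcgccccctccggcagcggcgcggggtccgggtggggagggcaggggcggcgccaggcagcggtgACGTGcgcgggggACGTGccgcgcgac
Egln3: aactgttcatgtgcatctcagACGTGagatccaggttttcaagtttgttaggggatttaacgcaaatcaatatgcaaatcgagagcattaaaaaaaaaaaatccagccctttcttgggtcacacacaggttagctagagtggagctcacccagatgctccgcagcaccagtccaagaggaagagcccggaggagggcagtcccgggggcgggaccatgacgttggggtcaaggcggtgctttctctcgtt
Pdk2: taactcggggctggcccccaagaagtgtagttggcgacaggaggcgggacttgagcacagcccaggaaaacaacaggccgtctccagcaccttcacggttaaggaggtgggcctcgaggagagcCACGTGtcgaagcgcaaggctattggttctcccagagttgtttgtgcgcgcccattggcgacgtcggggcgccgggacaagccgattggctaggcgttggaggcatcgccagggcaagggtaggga
Pdk4: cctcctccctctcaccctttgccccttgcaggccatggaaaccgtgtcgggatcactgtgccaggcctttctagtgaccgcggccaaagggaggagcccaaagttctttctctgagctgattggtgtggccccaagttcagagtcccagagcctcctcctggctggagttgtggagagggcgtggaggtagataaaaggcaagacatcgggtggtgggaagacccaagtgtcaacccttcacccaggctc
The Ldha window holds the letters at 3 places, of which 2 read CACGTG, the palindromic E-box that contains ACGTG on both strands. Slc16a3 holds them at 2 places close to the start, Egln3 at 1 place far from it, beginning 229 bases upstream, Pdk2 at 1 place as CACGTG, and Pdk4 at none.

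Of the members, 38 had an entry in the promoter table, with 57 windows in all. ACGTG, on either strand, stood in 25 of the 57 windows (43.9%), against 16.6% of all 32851 windows of the same length. The list was made of glycolysis and hypoxia genes, some of them known HIF targets, so this share is not independent of that choice. CACGTG stood in 12.3% of the members' windows and in 6.02% of all windows, and the forkhead core GTAAACA, on either strand, in 1.75% and 3.17%. The single member window with GTAAACA belonged to Aldoc. Median GC content was 60.4% in the members' windows and 52.4% in all windows, and its part in the shares was not tested. Windows of 1 gene can overlap, and a match of letters is not a binding site. The deposited Foxk1 and Sin3A region lists are in build mm9 and were not placed at these genes.

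Of 73 other genes of glycolysis and pyruvate, glycogen, the pentose phosphate route and hypoxia, 72 were found and 52 were expressed in the starvation comparison. In the starved library 10 were higher and 3 lower with intervals apart, against 12.2% and 10.9% of all rows. Among the higher genes that reached 5 FPKM in either library compared, the largest changes were those of the mitochondrial phosphoenolpyruvate carboxykinase gene Pck2, at 59.3 FPKM in the starved and 18.8 FPKM in the control library (log2 fold change 1.61), the Max-interacting repressor gene Mxi1 (1.09), the histone demethylase gene Kdm3a (1.03) and the pyruvate carboxylase gene Pcx (0.94). Of the lower ones, 9630033F20Rik, which RefSeq lists under the symbol Tigar, had the largest change (-1.13) at 1.42 FPKM in the starved and 4.31 FPKM in the control library. Pck2 and Pcx belong to the route from pyruvate back towards glucose. Of other listed genes of that route, Pck1, Fbp1 and Fbp2 stayed under 1 FPKM in every library, and G6pc3 overlapped the control in the starved library. Among the 20 expressed hypoxia genes of this list, 6 were higher and 1, Angptl4, was lower (-0.51). Arnt, the partner of the HIF alpha subunits, was at 28.1 FPKM (23.3 to 33.1) in the starved, 19.5 FPKM (16.4 to 22.6) in the knockdown and 16.2 FPKM (13.8 to 18.5) in the control library, above both others in the starved one with intervals apart.

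In the knockdown library 3 of 51 expressed genes of that list were higher and 6 lower with intervals apart (8.89% and 7.13% of all rows), and the median was -0.13. Taldo1, the transaldolase of the pentose phosphate route, was at 31.3 FPKM in the starved, 96.7 FPKM in the knockdown and 47.4 FPKM in the control library. It was called in opposite directions, lower in the starved library (-0.59) and higher in the knockdown library (1.01). Galm, galactose mutarotase, was called in the other order, at 7.34 FPKM in the starved (0.72), 2.35 FPKM in the knockdown (-0.59) and 4.05 FPKM in the control library. The collagen lysyl hydroxylase gene Plod2 (0.64) and Kdm3a (0.44) were the other higher genes. The lower genes beside Galm were the adenylate kinase gene Ak4 (-1.11), under 5 FPKM in every library, the lysyl oxidase gene Loxl2 (-0.96), the secreted glycoprotein gene Stc2 (-0.80), the phosphoglucomutase gene Pgm2 (-0.62) and the brain glycogen phosphorylase gene Pygb (-0.56). The regulators Foxk2 and Myc were not apart from the control in either library, with Myc at 27.0, 32.4 and 27.0 FPKM in the starved, knockdown and control libraries, and Epas1, which encodes another HIF alpha subunit, stayed under 1 FPKM.

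Most markers of differentiating muscle were higher in the knockdown library than in the control library. Of 19 expressed markers 15 were higher and 0 lower with intervals apart in the knockdown library (8.89% and 7.13% of all rows), and the summed level of the 20 found was 469 FPKM there, against 172 FPKM in the control library. In the starved library 0 of 18 were higher and 2 lower (12.2% and 10.9% of all rows), with a sum of 137 FPKM. Myog was at 6.02 FPKM in the starved, 45.4 FPKM in the knockdown and 14.2 FPKM in the control library, and Myh8 stayed below 0.1 FPKM. The muscle isoform genes among the members did not follow these markers upward, with log2 fold changes of -0.79 for Eno3, -0.84 for Aldoa and -0.20 for Pfkm in the knockdown library. The part of differentiation in the members' levels was not tested. Of the markers of other cell types, 4 of 6 adipocyte genes, 5 of 6 bone and cartilage genes and 3 of 4 immune genes were under 1 FPKM in the knockdown library. The summed bone and cartilage level was 1.06 FPKM in the starved, 11.2 FPKM in the knockdown and 5.78 FPKM in the control library, most of it Dmp1, and the adipocyte sum was 15.9 FPKM in the starved, 21.9 FPKM in the knockdown and 16.2 FPKM in the control library.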

How the data were processed

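Polyadenylated RNA was profiled in 3 libraries, grouped by their titles. Per the file headers, the authors deposited 1 mean FPKM per gene symbol with the lower and upper limit of a 95% interval. Tools named in the submitters' processing notes are Bowtie2 2.1.0, TopHat2 2.0.9, Cuffdiff and Cufflinks 2.1.1, with build mm9 and no roles. The annotation, the making of the intervals and any pooling behind the mean are not given there. Values were used as deposited. Low values gave no whole-read steps (1.69% of 2135 low rows shared the commonest ratio between libraries), so depth is unknown and a count test could not be used. Of 22989 rows, 1 (Zzz3) had limits out of order and was left out. Expressed means 1 FPKM or more in either library compared, and the pseudocount was 1. The members, steps and lists were chosen with earlier results of these data known. Named beside all members were, per direction, up to 4 called genes of the other pathway list at 5 FPKM or more with the largest change, and Foxk1, Foxk2, Myc, Arnt and Epas1. Ak4, 9630033F20Rik, the opposite calls of Taldo1 and Galm, and the background of rows averaging 100 FPKM, were picked after seeing the values. The range from aldolase to lactate dehydrogenase was not among the planned steps either. Missing symbols were matched through RefSeq synonyms. The call rule was run on simulated data with known changes of 2.5-fold, for rows of 5 FPKM or more in the control library. Noise there came from the control library's own interval widths, with symmetric intervals and no replicate spread. The simulation therefore checks the rule as coded, and not how often calls are wrong in these libraries. Python 3.11.15, numpy 2.4.6, pandas 2.3.3 and matplotlib 3.10.9 were used.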

Additional observations from a re-analysis of the deposited data

How the results depend on the processing

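Alternatives covered the pseudocount, the filter on low values, the call rule and the scaling. In the knockdown library the number of members called lower was 12 under every alternative tried, and the number called higher was 3 or 4. In the starved library the number called lower was 3 by a fold of 1.5 or more, and 3 with intervals apart and that fold, against 6 as reported, since Ldha, Pfkfb4 and Egln1 were apart by less than that fold on the log2(FPKM + 1) scale, where Pfkfb4 stood at -0.52 although its plain ratio was 0.632. The number called higher was 4 throughout. The knockdown median of -0.34 was -0.18 with a pseudocount of 5, which shrinks the fold changes of low genes, and between -0.41 and -0.33 under the other alternatives. The starved median of -0.01 was 0.09 after rescaling to the same sum, which raises every starved value by 0.10 on the log2 scale. Of 80 fold changes of single members after rescaling to a median ratio of 1, 79 kept their call and 1 lost it (Egln1 in the starved library). A pseudocount leaves the calls untouched by construction; of 160 fold changes with another pseudocount, 2 left the range their intervals allow (Eno2 and Pdk2 in the starved library, both with a pseudocount of 5). Among called values 0 changed sign, while uncalled values near 0 could, as Gpi1 in the starved library did (0.02 after rescaling, against -0.01). No paired analysis was possible because each group has 1 library. No library could be left out for the same reason. The width of the deposited intervals limits the calls.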
